A study of Arabidopsis thaliana with 60 samples.

Results

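The data describe the stem of bolting Arabidopsis thaliana (wild type, Col) 2 min after high light and heat were applied together to 1 leaf of the plant (HL+HS), a tissue that itself received neither stress. The measurements are 3 libraries of this stem and 3 libraries of stem at 0 min from unstressed plants (control), out of 60 libraries in the series. Every gene whose normalized counts averaged 10 or more in these 6 libraries was tested, which left 18432 of 32833 genes. The filter fell between AT4G31615, with a mean of 11.7 normalized counts in HL+HS and 8.35 in control stems, and CRF1, with 9.23 in HL+HS and 10.7 in control stems. The other stem groups at 2 min, with 3 libraries each, came from plants with high light on 1 leaf (HL), heat on 1 leaf (HS), or light and heat on separate leaves (HL&HS). Plants of every group were grown at 23 °C with 50 µmol of light in days of 14 h. The light stress was 1700 µmol, and the heat came from a block 2 cm under the leaf. Groups were taken from the sample titles, because the labels' treatment entry reads no treatment for every stem sample, control and stressed alike. The labels do not say whether replicates were separate plants or pools, so the p-values measure the spread between these libraries.

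Plants carry information about a stress on 1 leaf to the rest of the shoot by waves of calcium, reactive oxygen species and membrane potential that travel along the vascular bundles, with glutamate receptor-like channels and respiratory burst oxidases among the known carriers. The inflorescence stem is the path between leaves, and it is also a growing organ in which xylem vessels and fibres build thick secondary walls of cellulose, xylan and lignin under a cascade of NAC and MYB transcription factors. Chlorophyll synthesis, the circadian clock, jasmonate and glucosinolate metabolism are further programmes of green stem tissue whose transcripts respond to light, heat and wounding in leaves.

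The 3 HL+HS stem libraries held 42888619 to 47559552 reads and the 3 control stem libraries held 11222205 to 12932588. Every 2 min library of the series was deeper than every 0 min library, so depth class, time and treatment cannot be told apart in the comparison with control, and there was no unstressed group at 2 min. The other 2 min stem groups were close to the HL+HS libraries in depth, at 37036697 to 45220989 reads, with every HL and HS library below every HL+HS library, and the stem libraries taken 8 min after HL+HS had the depth of the control, at 11315638 to 12763266. For that reason the values of these groups stand beside the main results. Stem identity was clear from 12 xylem and fibre markers, which summed to 42914.9 to 44579.1 normalized counts in HL+HS stems and 79788.6 to 84065.0 in control stems, against 1219 to 1483 in leaves 2 min after HL+HS and 930.8 to 1034 in control leaves. In bulk tissue, fewer cells of a type and less RNA per cell cannot be told apart.

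Against control, the HL+HS stem carried many small differences and few large ones. Of 18432 genes, 6677 (36.2% of all tested) passed a Benjamini-Hochberg adjusted p of 0.05 in limma, 3259 (17.7%) higher and 3418 (18.5%) lower in HL+HS stems. Only 320 (1.74%) differed by at least 2-fold, 80 higher (0.434%) and 240 lower (1.3%). With the 2 min reads thinned to the depth of the control, 5785 genes passed. The median size of a called difference was 0.31 on the log2 scale, and all log2 values here are of normalized counts plus 1. Most members of the lignin, xylan and secondary wall regulator lists were on the lower side, and members of the cell division, ribosome and endoplasmic reticulum chaperone lists were mostly on the higher side.

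**Figure D1:**
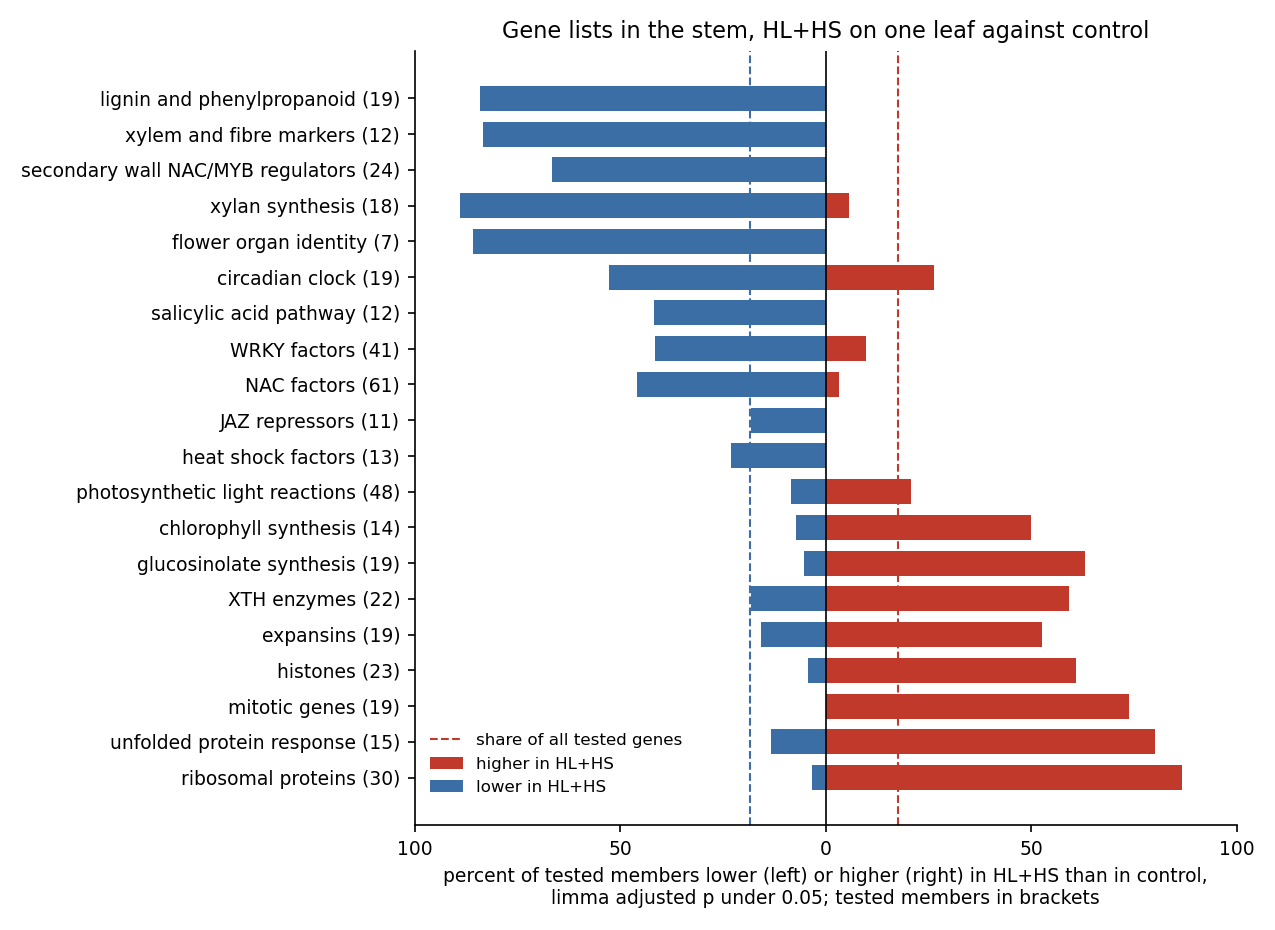
Share of the tested members of 20 gene lists that were lower (bars to the left) or higher (bars to the right) in HL+HS stems than in control stems at an adjusted p under 0.05 in limma, in percent. The dashed lines mark the shares of all tested genes, 18.5% lower and 17.7% higher. The xylan, lignin and xylem lists reach far left of their line, and the ribosomal, mitotic and unfolded protein response lists far right of theirs.

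Most genes that build lignin in the secondary wall were lower in HL+HS stems than in control stems. Of 19 lignin and phenylpropanoid genes tested, 16 were lower, 0 were higher and 3 did not pass, with a median log2 difference of -0.77 and a range of -1.41 to 0.08. PAL4, a phenylalanine ammonia-lyase that opens the phenylpropanoid pathway, had 1220.1, 1218 and 1335 normalized counts in HL+HS stems against 3337, 3215 and 3459.6 in control stems. The groups did not overlap, and the log2 difference was -1.41 ± 0.06 (SE, limma adjusted p = 1.0e-20). Downstream of it, 4CL1, a 4-coumarate CoA ligase, differed by -1.03 ± 0.05 (limma adjusted p = 4.3e-21), and CAD5, an alcohol dehydrogenase of monolignol synthesis, by -1.04 ± 0.05 (limma adjusted p = 1.4e-20). IRX12, the laccase that polymerizes lignin in the wall, averaged 5660.3 ± 205.5 in HL+HS and 12678 ± 441.5 in control stems (SD, n = 3 each), a difference of -1.16 ± 0.05 (limma adjusted p = 5.1e-21).

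The cellulose and xylan arms of the wall showed the same direction. CESA4, a catalytic subunit of the secondary wall cellulose synthase, had 8084, 8249 and 8477 normalized counts in HL+HS stems against 16517, 17551 and 18258 in control stems. All HL+HS libraries were below all control libraries, and the log2 difference was -1.08 ± 0.04 (limma adjusted p = 1.1e-21). Of 9 cellulose synthases tested, 4 were lower, 0 higher and 5 did not pass. On a list of 18 xylan genes, 16 were lower and 1 was higher, with a median of -0.85. GAUT12, a glycosyltransferase of xylan synthesis, had 1410.3, 1449.6 and 1452 in HL+HS stems against 3007, 3117 and 3142 in control stems. Its difference was -1.10 ± 0.05 (limma adjusted p = 1.7e-19). The single member that was higher was F8H, at 598.5 ± 21.3 in HL+HS and 500.4 ± 26.2 in control stems (SD, n = 3 each), a difference of 0.26 ± 0.05 (limma adjusted p = 1.8e-04).

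Most regulators of this programme were lower as well, while the vessel regulator VND7 did not pass the test. Of 24 secondary wall NAC and MYB regulators tested, 16 were lower, 0 higher and 8 did not pass, with a median of -0.70. NAC012, a NAC factor that switches on fibre wall thickening, had 248.7, 247.3 and 246.2 normalized counts in HL+HS stems against 573.5, 554.3 and 528.7 in control stems. AtMYB103, a MYB factor below it, had 579.5, 580.7 and 603.0 in HL+HS stems against 1639.8, 1613 and 1689 in control stems. Neither gene's groups overlapped, and the differences were -1.15 ± 0.08 for NAC012 (limma adjusted p = 1.3e-14) and -1.49 ± 0.07 for AtMYB103 (limma adjusted p = 3.9e-20). VND7, the NAC factor that specifies xylem vessels, had 77.9, 68.5 and 78.5 in HL+HS stems against 68.9, 79.4 and 70.9 in control stems. These groups overlapped, with a difference of 0.04 ± 0.14 (limma adjusted p = 0.87), and the vessel protease XCP1 likewise did not pass, at 0.09 ± 0.06 (limma adjusted p = 0.23).

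**Figure D2:**
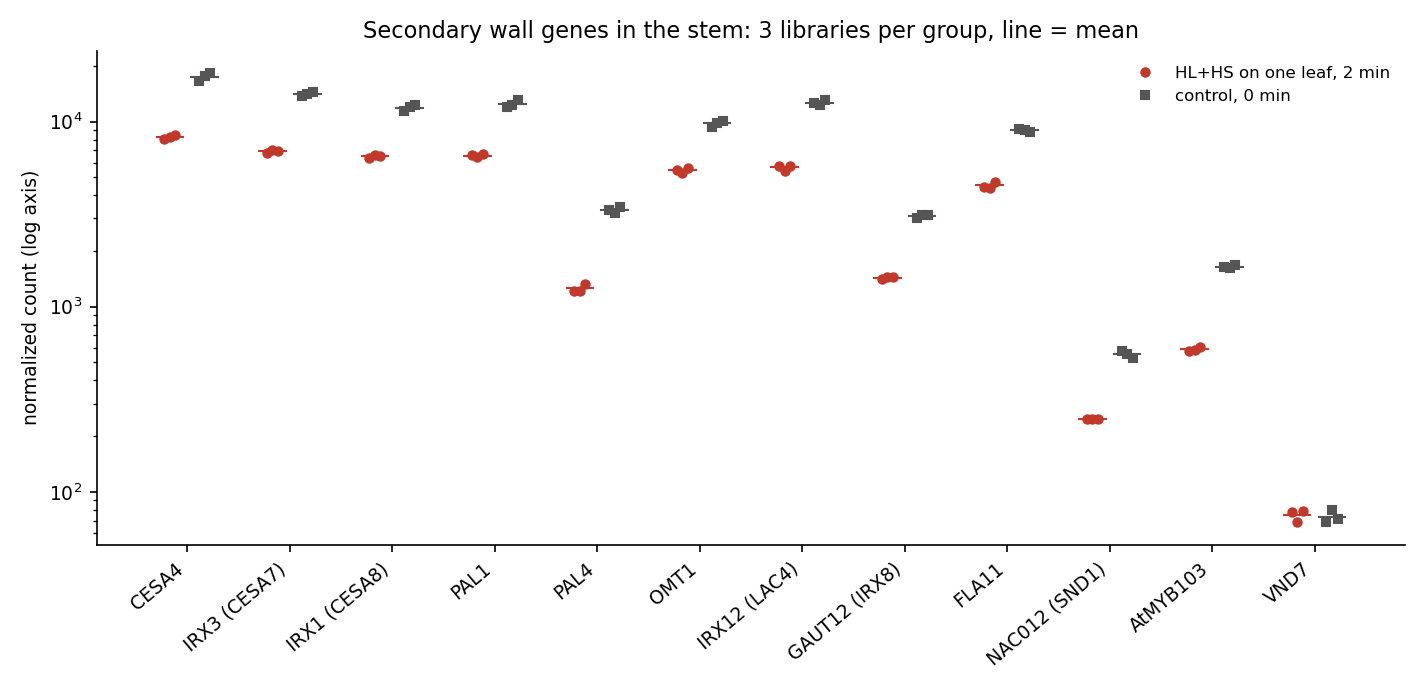
Normalized counts (log axis) of 12 secondary wall genes in each of the 3 HL+HS stem libraries (left) and the 3 control stem libraries (right) at every gene. The genes were picked for display, several after their values were seen, so they do not stand for all wall genes. The points of VND7 overlap, and those of the other genes shown lie lower in HL+HS stems.

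Among the 2 min stem groups, the HL+HS stem was intermediate for these genes. CESA4 averaged 8270.3 normalized counts in HL+HS stems, against 6369.7 in HL, 9445 in HS and 7458 in HL&HS stems. Compared with HL, 10 of 19 lignin genes were higher and 1 lower in HL+HS stems, and 10 of 18 xylan genes were higher and 0 lower. Compared with HS, 9 lignin genes were lower and 0 higher, while the 10 lower xylan genes fell to 4 without HS replicate 2 and to 6 without HL+HS replicate 1 or 3. Summed over the lignin list, the libraries held 67064.2 to 69924.7 normalized counts in HL+HS stems, 58002.6 to 63249.9 in HL, 77269.4 to 77912.2 in HS, 63620.3 to 65028.0 in HL&HS and 117391.9 to 123386.2 in control stems. In stems 8 min after HL+HS, whose libraries are as shallow as the control, CESA4 averaged 11621, a log2 difference of -0.59 from control with no test made here.

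A promoter of the lignin pathway is shown because it carries a motif known to be bound by MYB factors. The 250 bases before the annotated start of CCoAOMT1, a methyltransferase of monolignol synthesis, lie at chr4:16310159-16310408 on the plus strand of TAIR10.1 (RefSeq), with capitals for the AC element ACCTACC.
CCoAOMT1: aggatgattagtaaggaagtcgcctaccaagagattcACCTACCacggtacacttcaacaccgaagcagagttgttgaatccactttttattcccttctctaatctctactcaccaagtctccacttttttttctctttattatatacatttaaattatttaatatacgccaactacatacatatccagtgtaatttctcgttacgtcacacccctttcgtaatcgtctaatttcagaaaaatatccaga
The gene itself had 14022, 13194 and 13792 normalized counts in HL+HS stems against 22976, 22963 and 23812 in control stems. The groups did not overlap, and the difference was -0.77 ± 0.04 (limma adjusted p = 9.3e-19). On either strand, ACCTACC or the related form ACCAACC was found in 8 of 66 promoters of the lignin, xylan and regulator lists and the secondary wall cellulose synthases (12.1%) and in 3.79% of all 31144 promoters of that length. In promoters of the tested genes the share was 3.94%.

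The largest increase among genes with a group mean of at least 50 normalized counts was in PORB, one of the light-dependent enzymes that convert protochlorophyllide to chlorophyllide. PORB had 2036, 1964 and 2004 normalized counts in HL+HS stems against 456.1, 446.7 and 496.6 in control stems. No libraries overlapped, and the log2 difference was 2.10 ± 0.06 (limma adjusted p = 1.4e-26). PORA, the isoform known from etiolated seedlings, had 323.5, 335.7 and 330.0 in HL+HS stems against 132.0, 107.6 and 98.0 in control stems, a difference of 1.55 ± 0.10 (limma adjusted p = 7.7e-16). POR C, the isoform of light-grown tissue, had 3856, 4061 and 3783 in HL+HS stems against 3859, 3809 and 3885 in control stems. Its groups overlapped, and it differed by 0.02 (limma adjusted p = 0.83). The rest of the chlorophyll synthesis list moved little: 7 of 14 were higher and 1 lower, with a median of 0.12. PORB at 8 min after HL+HS averaged 1564 normalized counts, 1.74 above control on the log2 scale, in libraries of the control's depth.

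The promoters of both raised POR genes and of MEE14 and COR15A are shown because they belong to genes with large increases and hold copies of the motifs searched. Each is the 250 bases before the annotated start in TAIR10.1 (RefSeq): PORB at chr4:13725296-13725545 (plus), PORA at chr5:21992815-21993064 (minus), MEE14 at chr2:6922162-6922411 (minus) and COR15A at chr2:17712331-17712580 (minus). Capitals mark the evening element core AATATCT, the I-box core GATAAG, the ABRE core ACGTG, the G-box CACGTG, the DRE core CCGAC and the site II element TGGGCC, on either strand; the ABRE core lies inside the G-box.
PORB: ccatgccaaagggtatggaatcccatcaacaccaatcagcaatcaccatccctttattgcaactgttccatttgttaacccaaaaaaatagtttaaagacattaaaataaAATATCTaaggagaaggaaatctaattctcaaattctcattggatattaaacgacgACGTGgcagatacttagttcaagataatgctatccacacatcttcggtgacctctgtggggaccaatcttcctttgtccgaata
PORA: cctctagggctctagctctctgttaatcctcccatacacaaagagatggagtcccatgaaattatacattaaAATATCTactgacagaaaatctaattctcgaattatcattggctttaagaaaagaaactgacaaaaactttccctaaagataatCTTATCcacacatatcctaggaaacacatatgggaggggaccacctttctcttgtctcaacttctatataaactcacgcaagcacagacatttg
MEE14: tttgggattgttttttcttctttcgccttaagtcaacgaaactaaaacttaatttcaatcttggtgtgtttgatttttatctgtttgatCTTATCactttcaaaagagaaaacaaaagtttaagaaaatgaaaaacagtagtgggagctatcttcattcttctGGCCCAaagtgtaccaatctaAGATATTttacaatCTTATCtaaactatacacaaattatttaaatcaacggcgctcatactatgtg
COR15A: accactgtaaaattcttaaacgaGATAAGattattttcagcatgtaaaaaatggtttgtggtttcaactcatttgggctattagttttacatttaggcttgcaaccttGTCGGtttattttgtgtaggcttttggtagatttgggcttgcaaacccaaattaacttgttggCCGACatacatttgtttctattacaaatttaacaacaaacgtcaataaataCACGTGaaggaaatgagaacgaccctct
The evening element core was present in 18 of 78 promoters of genes at least 2-fold higher in HL+HS stems (23.1%), in 24 of 238 of genes at least 2-fold lower, and in 9.78% of all promoters. For the I-box core these shares were 23.1%, 14.7% and 12.4%. For the heat shock element GAANNTTC they were 8.97%, 7.98% and 9.63%, and for the rapid stress response element CGCGTT 5.13%, 2.1% and 2.55%. The other marked motifs were in 28.2%, 28.6% and 22.1% for the ABRE core, 11.5%, 7.14% and 6.06% for the G-box, 8.97%, 6.3% and 11.7% for the DRE core, and 8.97%, 6.3% and 12.7% for site II. In promoters of the tested genes the shares were 9.94% for the evening element core, 12.3% for the I-box core and 9.22% for the heat shock element. They were 2.7% for the rapid stress response element, 22.9% for the ABRE core and 7.39% for the G-box. For the DRE core and site II they were 13.0% and 17.3%. These motif counts describe letters in a window and were not tested.

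MEE14 had 150.2, 185.0 and 165.6 normalized counts in HL+HS stems against 45.5, 34.7 and 45.6 in control stems, and COR15A, a chloroplast cold-protection protein, had 431.1, 595.1 and 456.9 in HL+HS stems against 186.3, 196.9 and 167.2 in control stems. Both genes had groups that did not overlap, with log2 differences of 1.97 ± 0.17 for MEE14 (limma adjusted p = 1.1e-12) and 1.41 ± 0.10 for COR15A (limma adjusted p = 1.3e-14). COR15A was the most changed of 14 abscisic acid and cold effector genes, of which 7 were higher and 4 lower. Other large increases were in AT1G04660 (1.54), Fes1B (1.53), AT1G70820 (1.48), AT5G37970 (1.47), AT3G10020 (1.47) and AT5G37940 (1.47), as log2 differences that passed the test. LTP2, a lipid transfer protein, averaged 77.7 ± 11.0 in HL+HS and 26.7 ± 4.17 in control stems (SD, n = 3 each). AT5G37940 shares 69.1% of its length with near-identical sequence elsewhere, so its reads may include those of a related gene.

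Among the genes with large decreases were a sucrose transporter and a galactinol synthase. SWEET11, a sucrose exporter of phloem loading, had 43.0, 38.2 and 42.3 normalized counts in HL+HS stems against 240.5, 244.9 and 226.4 in control stems. The groups were far apart, with a log2 difference of -2.50 ± 0.14 (limma adjusted p = 1.6e-17), and the mean at 8 min was 44.2. GolS2, a galactinol synthase that opens raffinose synthesis, had 168.2, 169.4 and 153.4 in HL+HS stems against 567.6, 594.0 and 528.7 in control stems, a difference of -1.78 ± 0.11 (limma adjusted p = 4.9e-16). Of 6 galactinol and raffinose synthesis genes tested, 3 were lower, 2 higher and 1 did not pass, with a median of -0.14. SWEET11 averaged 44.9 in HL, 58.5 in HS and 50.7 in HL&HS stems, so its low level was shared by the 2 min groups. Further decreases were in AT3G19030 (-2.06), SAG13 (-1.89), ChlAKR (-1.74), AT5G42235 (-1.70) and LURP1 (-1.70), and in the pollen genes PGA4 and VGD1. Of these pollen genes, PGA4 is described with the flower and pollen markers.

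Genes of growth and protein synthesis were higher in HL+HS than in control stems. The summed mitotic, histone and ribosomal lists were above control in the other 2 min stem groups too. Of 19 mitotic cyclins, B-type kinases and division kinesins tested, 14 were higher and 0 lower, with a median of 0.41. This list summed to 3495.8 to 3545.5 normalized counts in HL+HS stems and 2650.3 to 2738.4 in control stems. The sums were 3402.4 to 3526.3 in HS, 3700.5 to 3867.1 in HL and 3959.2 to 4135.1 in HL&HS stems. CYCB1;3, a cyclin of the entry into mitosis, had 166.5, 157.7 and 161.1 normalized counts in HL+HS stems against 99.7, 99.3 and 109.8 in control stems, with no overlap and a difference of 0.65 ± 0.09 (limma adjusted p = 3.4e-07). Histones followed, with 14 of 23 higher and 1 lower, and cytosolic ribosomal proteins, with 26 of 30 higher and 1 lower. The histones summed to 16511.8 to 17668.4 in HL+HS stems and 14833.5 to 15142.2 in control stems. Their sums were 16055.6 to 16835.1 in HS, 17183.7 to 18144.1 in HL and 17368.8 to 18060.2 in HL&HS stems. RPL5B had 6874, 6900.3 and 6823 in HL+HS stems against 5566, 5596 and 5448 in control stems, a small difference of 0.31 ± 0.04 (limma adjusted p = 5.2e-09). Part of its length (21.3%) is shared with near-identical sequence. The site II element was present in 19 of 31 promoters of the ribosomal list (61.3%), in 12.7% of all promoters and in 17.3% of those of tested genes. Against HL, 20 of the 30 ribosomal genes were lower in HL+HS stems and 0 higher, a count that was 11 without HL replicate 3 and 13 without HL+HS replicate 1.

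Wall-loosening enzymes were mostly higher. Of 22 xyloglucan endotransglucosylases, 13 were higher and 4 lower, and of 19 expansins 10 were higher and 3 lower. XTH9 had 2574, 2498 and 2501 normalized counts in HL+HS stems against 1342, 1559 and 1438 in control stems, without overlap, and differed by 0.81 ± 0.05 (limma adjusted p = 6.0e-17). TCH4, a family member known for its fast response to touch, had 489.2, 448.7 and 450.0 in HL+HS stems against 299.2, 282.9 and 285.5 in control stems, a difference of 0.68 ± 0.06 (limma adjusted p = 2.4e-11). Its mean 8 min after HL+HS was 808.3. An expansin in the opposite direction was EXPA15, at 4959.8 ± 57.1 in HL+HS and 7986 ± 378.7 in control stems (SD, n = 3 each), with a difference of -0.69 ± 0.04 (limma adjusted p = 2.6e-18).

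The morning loop of the clock was lower in HL+HS stems. LHY, a MYB repressor expressed at dawn, had 6786, 6582 and 6519 normalized counts in HL+HS stems against 12090.0, 12696 and 12811 in control stems. CCA1, its partner, had 4548, 4530.4 and 4483 in HL+HS stems against 8121, 8119 and 8137 in control stems. The groups of both genes lay well apart, with differences of -0.92 ± 0.04 for LHY (limma adjusted p = 3.6e-21) and -0.85 ± 0.04 for CCA1 (limma adjusted p = 2.9e-20). TOC1, which is expressed in the evening, was 0.28 ± 0.08 higher (limma adjusted p = 0.006). Of 19 clock genes, 10 were lower and 5 higher, and without control replicate 2 the higher ones numbered 3. The sampling hours of the groups are not given in the labels, so clock time was not tested as part of these values. At 8 min LHY averaged 5488 and CCA1 4126.

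The heat, reactive oxygen and calcium lists did not share a direction at 2 min. Of all tested genes, 17.7% were higher than control and 18.5% lower. Of 13 heat shock factors tested, 0 were higher, 3 lower and 10 did not pass. HSFA2, the heat-induced factor of acclimation, had 78.7, 80.2 and 81.8 normalized counts in HL+HS stems against 82.1, 71.1 and 79.4 in control stems. The groups overlapped, at a difference of 0.05 ± 0.14 (limma adjusted p = 0.81), and at 8 min HSFA2 averaged 162.6. Among HSP70, HSP90 and HSP100 chaperones 2 were higher and 5 lower of 13. HSP70 (AT3G12580) averaged 941.5 in HL+HS stems, 744.7 in HL, 1379 in HS, 1169 in HL&HS and 1122 in control stems, and its log2 difference from HS stems was -0.55 ± 0.05 (limma adjusted p = 9.5e-10). Of 7 ZAT and AZF zinc-finger genes, which include classic regulators responsive to reactive oxygen species, 0 were higher and 5 lower, with a median of -0.41. Enzymes that remove reactive oxygen species differed from these. Of 18 ascorbate peroxidases, superoxide dismutases and catalases, 8 were higher, 1 was lower and 9 did not pass, with a median of 0.13. Among all tested genes 17.7% were higher. APX1, a cytosolic ascorbate peroxidase, had 12481, 12441 and 12605 normalized counts in HL+HS stems against 11443, 11020 and 11186 in control stems, without overlap and at a difference of 0.16 ± 0.04 (limma adjusted p = 0.0027). The 1 lower member was CAT2, the main leaf catalase, with 8154, 8045 and 8018 in HL+HS stems against 15818, 15719 and 15377 in control stems, a difference of -0.95 ± 0.06 (limma adjusted p = 2.3e-16). Of 14 calmodulins and calmodulin-like proteins, which bind calcium, 5 were higher and 2 lower, a larger higher share than the 17.7% of all tested genes. Of 24 calcium-dependent protein kinases 2 were higher and 9 lower, a larger lower share than the 18.5% of all tested genes.

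The known carriers of the systemic wave changed by small amounts. GLR3.3, a glutamate receptor-like channel, had 660.0, 630.6 and 648.1 normalized counts in HL+HS stems against 632.1, 643.6 and 690.9 in control stems. These groups overlapped, with a difference of -0.02 ± 0.06 (limma adjusted p = 0.84). GLR3.6, a second such channel, was 0.29 ± 0.09 higher (limma adjusted p = 0.0085), a call lost without HL+HS replicate 1, where the difference was 0.20. RBOHD, the oxidase of the radical wave, had 902.2, 925.8 and 892.7 in HL+HS stems against 1029.6, 1056 and 1076 in control stems, without overlap. It was lower by -0.22 ± 0.05 (limma adjusted p = 1.8e-04), and so was the other RBOH gene tested, RBOH F, at -0.40 (limma adjusted p = 1.9e-05).

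Stress and development regulators of the NAC and WRKY families were more often lower than higher. Of 61 NAC genes, 28 were lower and 2 higher, and of 41 WRKY genes 17 were lower and 4 higher; the 17 became 11 without HL+HS replicate 3. WRKY33, a defence regulator, had 76.2, 70.1 and 64.3 normalized counts in HL+HS stems against 124.7, 142.3 and 140.2 in control stems, with no overlap and a difference of -0.94 ± 0.12 (limma adjusted p = 3.8e-08). At 8 min it averaged 168.3, above control. ACD6, a defence gene of the salicylic acid pathway, had 171.7, 168.3 and 151.8 in HL+HS stems against 560.3, 479.8 and 506.8 in control stems. It differed by -1.65 ± 0.11 (limma adjusted p = 1.3e-15). Of 12 salicylic acid pathway genes tested, 5 were lower and 0 higher. PR1, a marker of that pathway, had 1.29, 0 and 0 normalized counts in HL+HS stems, 57.1, 56.7 and 43.0 in HL&HS stems, and 49.9, 8.27 and 6.76 in control stems. From 3 reads over the HL+HS libraries and 43 over the control libraries, its level was 56.1-fold lower in HL+HS stems, with a counting interval of 18.0 to 282.6 at 95% confidence. Control replicate 1 held 34 of the 43 reads, and without it PR1 was 18.4-fold lower, with an interval of 4.6 to 105.8. Without HL+HS replicate 1, which held all 3 reads of its group, PR1 was at least 38.4-fold lower at a floor of 3 reads over the group, and without HL+HS replicate 2 or 3 it was 36.5-fold or 37.3-fold lower.

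Setting the HL+HS stem beside the other stressed stems of the same time and of close, somewhat lower depth gave smaller counts. In limma 2216 genes (12%) differed from HL, with 1135 higher (6.16%) and 1081 lower (5.86%). From HS, 745 genes (4.04%) differed, 279 higher (1.51%) and 466 lower (2.53%), and from HL&HS 568 genes (3.08%), 304 higher (1.65%) and 264 lower (1.43%). Differences of at least 2-fold numbered 64 (0.347%) from HL, 67 (0.363%) from HS and 39 (0.212%) from HL&HS. The counts depended on single libraries. Against HL the count was 1336 without HL replicate 2, 1428 without HL+HS replicate 3 and 1441 without HL+HS replicate 1, and against HS it was 438 without HL+HS replicate 3. Without HS replicate 2 or 3 it was 493 or 496. Against HL&HS it was 303 without HL+HS replicate 3, 316 without HL+HS replicate 1, and 318 or 328 without HL&HS replicate 2 or 3.

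Jasmonate genes separated the HL+HS stem from the HS and HL&HS stems. LOX2, the lipoxygenase that starts jasmonate synthesis, had 55.1, 64.3 and 48.8 normalized counts in HL+HS stems and averaged 57.4 in HL, 314.2 in HS, 204.1 in HL&HS and 70.9 in control stems. Its log2 difference was -2.46 ± 0.18 from HS (limma adjusted p = 2.2e-13) and -1.85 ± 0.18 from HL&HS (limma adjusted p = 6.0e-10), and it did not pass against HL or control. JAZ10, a jasmonate-induced repressor of jasmonate signalling, had 15.1, 19.5 and 19.5 in HL+HS stems and averaged 16.1 in HL, 116.5 in HS, 68.6 in HL&HS and 22.5 in control stems. Every HL+HS library of both genes was below every HS and HL&HS library. Of 11 JAZ genes, 7 were lower in HL+HS than in HS stems and 0 higher, and 5 were lower than in HL&HS stems, counts that were 7 and 5 to 6 with any single library left out. For 9 jasmonate synthesis genes, 6 were lower than in HS and 4 than in HL&HS stems, the 4 becoming 2 without HL+HS replicate 1. OPR3, a reductase of the pathway, was 0.48 ± 0.06 higher than in control (limma adjusted p = 9.5e-08) and differed by -0.73 ± 0.06 from HS stems (limma adjusted p = 6.1e-11). Flower identity markers moved with this contrast: they summed to 831.5 to 895.1 normalized counts in HL+HS stems, 1066.7 to 1135.6 in HS and 1055.0 to 1084.8 in HL&HS stems. Of 7 tested, 5 were lower than in HS stems, with a median of -1.81, and 3 were lower than in HL&HS stems. The 5 became 3 without HL+HS replicate 1, and the 3 became 0 without HL+HS replicate 2, HL&HS replicate 2 or HL&HS replicate 3. Control leaves summed to 1410.8 to 1431.5 on this list, above these stems, so the sum does not mark floral tissue alone. The part of these markers in the jasmonate values was not tested.

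Glucosinolate synthesis separated it from HL stems instead. Of 19 glucosinolate genes, 14 were higher in HL+HS than in HL stems and 0 lower, and the count was 12 to 14 with any single library left out. Against control 12 were higher and 1 lower, against HS 1 was higher and 2 lower, and against HL&HS 0 passed. MAM1, which extends the methionine side chain of aliphatic glucosinolates, had 2161, 2095 and 2382 normalized counts in HL+HS stems and averaged 1422 in HL, 2352 in HS, 2162 in HL&HS and 1289 in control stems. It was 0.64 ± 0.07 above HL (limma adjusted p = 1.6e-08), with no shared range of values. CYP79B2, an enzyme of indole glucosinolates, averaged 340.7 in HL+HS, 193.3 in HL, 303.0 in HS, 419.2 in HL&HS and 310.9 in control stems, and was 0.81 ± 0.10 above HL (limma adjusted p = 6.2e-08). Against HL&HS, 4 of 6 tested ER body and myrosinase genes were lower and 0 higher, and the other 6 of the 12 on this list, PYK10 and NAI2 among them, were too low to test. JAL23, a jacalin-related lectin of the list, had 1307, 1529 and 1369 normalized counts in HL+HS stems against 4374, 3851 and 3932 in HL&HS stems, a difference of -1.53 ± 0.07 (limma adjusted p = 2.3e-20). BGLU18, a glucosidase that is not on the list, had 9594, 10309 and 9817 in HL+HS stems and 22837, 21318 and 20401 in HL&HS stems. Its log2 difference was -1.12 ± 0.05 from HL&HS (limma adjusted p = 1.3e-20), though above control by 0.68 ± 0.05 (limma adjusted p = 3.6e-15).

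**Figure D3:**
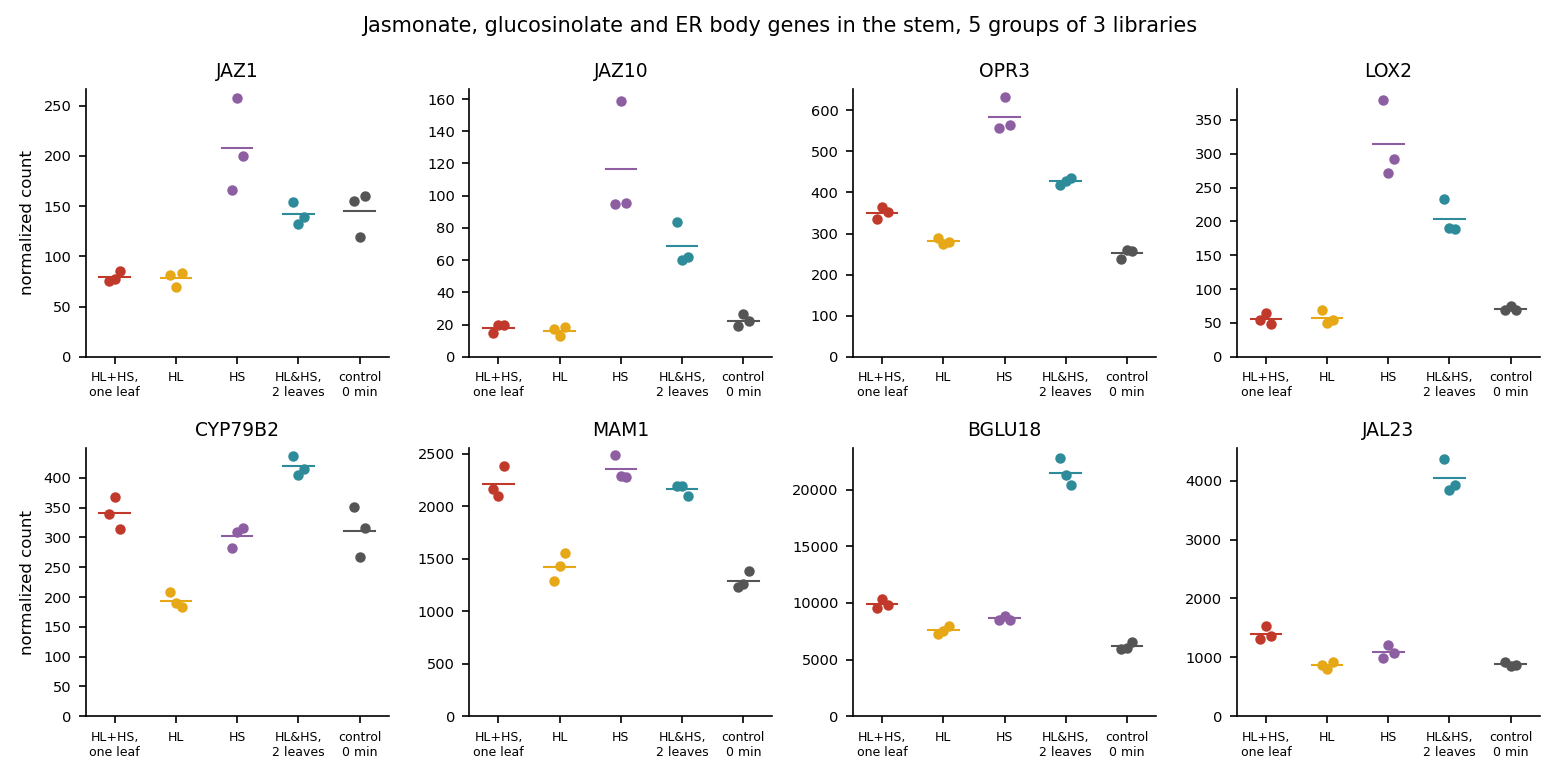
Normalized counts per library of 8 jasmonate, glucosinolate and ER body genes in HL+HS, HL, HS, HL&HS and control stems, with lines at the group means of 3 libraries. LOX2 and JAZ10 are high in HS and HL&HS stems and low in the other groups, and BGLU18 and JAL23 are highest in HL&HS stems.

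Against all 3 other stressed stems, 136 genes (0.738%) differed in a single direction, 97 higher (0.526%) and 39 lower (0.212%). The count was 73 without HL+HS replicate 3 and 82 without HL+HS replicate 1. Of the 97, 67 were also above control, 11 were below it and 19 did not pass against it, while 35 of the 39 lower genes were below control. AT2G33830, which encodes a dormancy and auxin-associated protein, had 350.2, 377.8 and 369.8 normalized counts in HL+HS stems and averaged 119.1 in HL, 115.7 in HS, 118.2 in HL&HS and 314.7 in control stems. It stood 1.61 to 1.66 above the other stressed groups on the log2 scale, at limma adjusted p values of 8.1e-14 to 2.4e-13, and 0.22 ± 0.11 above control (limma adjusted p = 0.14). XTH17 had 40.9, 29.6 and 35.0 in HL+HS stems and averaged 7.83 in HL, 8.63 in HS, 8.03 in HL&HS and 4.81 in control stems, and all its HL+HS libraries were above all libraries of these 4 groups. It has near-identical sequence elsewhere over 15.4% of its length. GRP7, a clock-regulated RNA-binding protein, had 2455, 2784 and 2528 in HL+HS stems and averaged 1720.1 in HL, 1720.5 in HS, 1972 in HL&HS and 1681 in control stems.

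Genes for nitrate and nitrite reductase stood apart in the other direction. NIA1, a nitrate reductase, had 546.0, 602.1 and 569.2 normalized counts in HL+HS stems and averaged 970.8 in HL, 1263 in HS, 888.3 in HL&HS and 1041 in control stems. NIA2, the major nitrate reductase, had 3155, 3356 and 3191 in HL+HS stems and averaged 5167 in HL, 6021 in HS, 4139 in HL&HS and 6151 in control stems. No library of these 4 groups came as low as the HL+HS libraries of either gene. Against control NIA1 differed by -0.86 ± 0.07 (limma adjusted p = 2.3e-13) and NIA2 by -0.93 ± 0.06 (limma adjusted p = 4.3e-16). NIR1, the nitrite reductase of the next step, was lower than the HL, HS, HL&HS and control groups too, by -0.27 to -0.58. Over 12 nitrate genes, a list drawn up after these values were seen, 3 were lower and 2 higher than control, near the shares of all tested genes, while 4 were lower than in HL, 4 than in HS and 3 than in HL&HS stems and 0 were higher. At 8 min NIA1 averaged 970.7 and NIA2 4653.

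**Figure D4:**
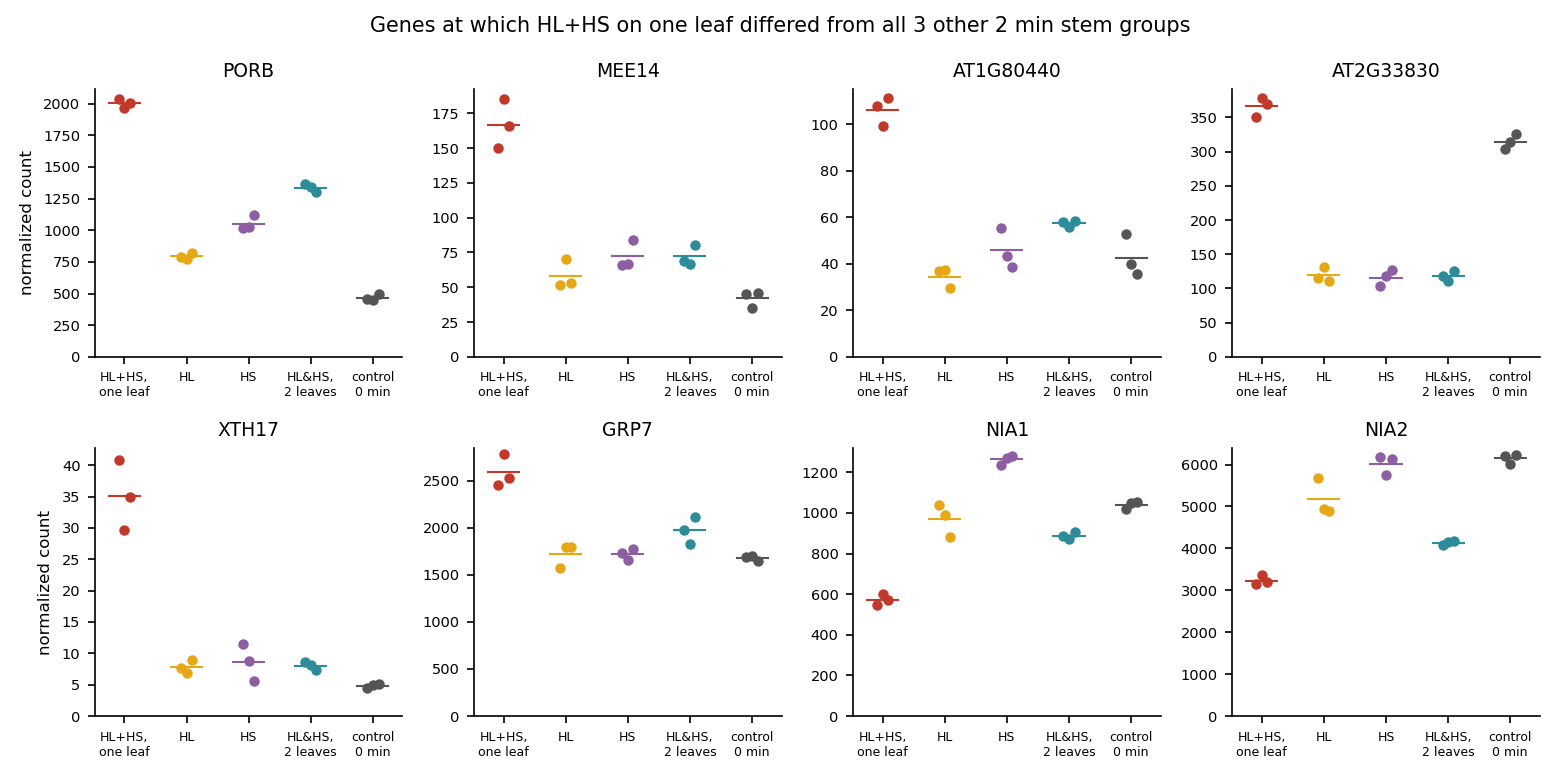
Normalized counts per library of 8 genes that set the HL+HS stem apart from the other stressed stems, in HL+HS, HL, HS, HL&HS and control stems, with lines at the group means of 3 libraries. PORB, MEE14, AT1G80440, AT2G33830, XTH17 and GRP7 are highest in HL+HS stems among the stressed groups, and NIA1 and NIA2 are lowest.

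Some genes induced by low sugar or darkness were higher than in the other stressed stems. Of 15 tested, 8 were higher than in HL, 5 than in HS and 8 than in HL&HS stems, with at most 1 lower in any of these comparisons, while against control 5 were higher and 4 lower. AT1G80440, an F-box protein gene of this list, had 108.0, 99.3 and 111.1 normalized counts in HL+HS stems and averaged 34.5 in HL, 45.7 in HS, 57.4 in HL&HS and 42.7 in control stems. All HL+HS libraries were above all libraries of these 4 groups, and the difference from control was 1.31 ± 0.15 (limma adjusted p = 2.1e-09). DYL1, a dormancy-associated gene, had 317.5, 307.7 and 347.5 in HL+HS stems and averaged 200.6 in HL, 254.0 in HS, 216.1 in HL&HS and 591.4 in control stems, so it lay above the stressed groups and below control.

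Summed markers of flowers and of pollen were lower in HL+HS than in control stems, though not every member was. The 14 pollen and tapetum markers summed to 52.2 to 58.1 normalized counts in HL+HS stems, 76.4 to 117.9 in HL, 116.5 to 131.7 in HS, 91.7 to 103.4 in HL&HS and 255.1 to 312.4 in control stems. In HL+HS stems 5 of them had no read, against 1 in control stems. AMS, 1 of the 14, went the other way, with 17 reads over the HL+HS libraries and 2 over the control libraries. Its levels were 2.31 and 1.06, with a counting interval that includes equal levels. Reads of PGA4, a pollen polygalacturonase, numbered 3 over the HL+HS libraries and 107 over the control libraries, which makes its level 139.6-fold lower in HL+HS stems with a counting interval of 46.5 to 687.5. AT3G01270, a pollen pectate lyase that is not among the 14 markers, had 0 reads in HL+HS stems and 77 in control stems. That is at least 100.4-fold lower when the floor is 3 reads over the group. Without HL+HS replicate 2, which held no read of either gene, the values were 90.8-fold lower for PGA4 and at least 65.4-fold lower for AT3G01270. Without HL+HS replicate 3, which held all 3 reads of PGA4, that gene was at least 92.9-fold lower, and AT3G01270 at least 66.9-fold lower. Flower identity genes summed to 831.5 to 895.1 in HL+HS stems and 1108.6 to 1287.2 in control stems, with 6 of 7 tested members lower. Leaves summed higher, at 1410.8 to 1431.5 in control and 1327.0 to 1445.3 in HL+HS leaves, so this sum does not mark floral tissue alone. LFY, too low to test, had 19 reads over the HL+HS libraries and 1 over the control libraries, with a counting interval that includes equal levels. AP3, a petal and stamen identity gene, had 2.58, 5.84 and 4.07 in HL+HS stems against 17.6, 18.2 and 11.8 in control stems. The groups were apart, at a fitted difference of -1.73 ± 0.49 (limma adjusted p = 0.0043), a call lost with a pseudocount of 0.1. AP3 entered the test through its control libraries, because all its HL+HS values lay below the filter on mean counts. The count of lower flower identity genes covers only members that passed this filter, which LFY did not, so it does not describe the whole list. The part of floral tissue in the other results was not tested. Phloem markers summed to 12375.9 to 13336.1 in HL+HS stems against 12249.2 to 12786.1 in control stems, ranges that overlapped. Shoot meristem markers summed to 11891.0 to 12430.2 in HL+HS stems against 13660.5 to 14219.7 in control stems, with 3 of 5 tested lower. Stem epidermis markers summed to 42337.3 to 44649.8 in HL+HS stems against 44850.1 to 46185.0 in control stems, with 2 of 8 lower, and root markers to 1718.8 to 2023.7 in HL+HS stems against 1614.9 to 1699.9 in control stems. These last 3 sums did not overlap between the groups, and their part in the wall and growth values was not tested.

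The leaf of the same treatment and time changed differently from the stem. The change from control differed between stem and leaf for 4754 of 18819 genes (25.3%) in limma over all 60 libraries, with 1803 more positive (9.58%) and 2951 more negative (15.7%) in stem. After TMM rescaling over both tissues, 2627 of 4589 were more positive instead, so the balance of directions rested on the scaling. The leaf libraries had the same depth gap, at 38105305 to 42879629 reads in HL+HS and 12359077 to 12998149 in control leaves. In leaf alone, 3601 of the 18819 genes were higher and 2667 lower in HL+HS than in control leaves. Genes of the unfolded protein response mostly changed in opposite directions: of 16 tested, 14 had a more positive change in stem, with a median difference of 1.01. In stem 12 of 15 were higher than control and 2 lower, and in leaf 1 was higher and 15 lower. CNX1, a lectin chaperone of the endoplasmic reticulum, had 6077, 6226 and 6204 normalized counts in HL+HS stems against 4887, 5103 and 5135 in control stems. Its change was 0.29 in stem and -0.96 in leaf, a difference of 1.25 ± 0.06 (limma adjusted p = 6.2e-23). BIP2, the main chaperone of that compartment, differed by 1.48 ± 0.06 (limma adjusted p = 6.7e-27), but 64.4% of its length has near-identical sequence elsewhere.

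Photosynthesis and wall genes contrasted in the opposite sense. Of 48 nuclear genes of the light reactions, 40 had a more negative change in stem and 0 a more positive one; in leaf 44 were higher than control, and in stem 10 were higher, 4 lower and 34 did not pass. The 10 became 6 without HL+HS replicate 2, and the 4 became 2 without control replicate 1. Of 19 lignin genes 15 had a more negative change in stem. In leaf 7 were higher and 3 lower, beside 3601 higher and 2667 lower of all 18819 genes. PAL1, the major phenylalanine ammonia-lyase, had 6603, 6409.6 and 6662 normalized counts in HL+HS stems against 12015, 12335 and 13100.3 in control stems. Its change was 0.19 in leaf, and the difference between stem and leaf was -1.12 ± 0.06 (limma adjusted p = 1.5e-22). TGG2, a myrosinase that cleaves glucosinolates, had 96561, 92135 and 95399.5 in HL+HS stems against 129084, 129649 and 137831 in control stems, and rose by 1.25 in leaf, a difference of -1.73 ± 0.09 (limma adjusted p = 1.3e-22). Salicylic acid genes had a more positive change in stem in 9 of 13 cases and a more negative one in 2, and 12 were lower in leaf. Of 30 ribosomal genes, 25 had a more positive change in stem and 1 a more negative one.

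**Figure D5:**
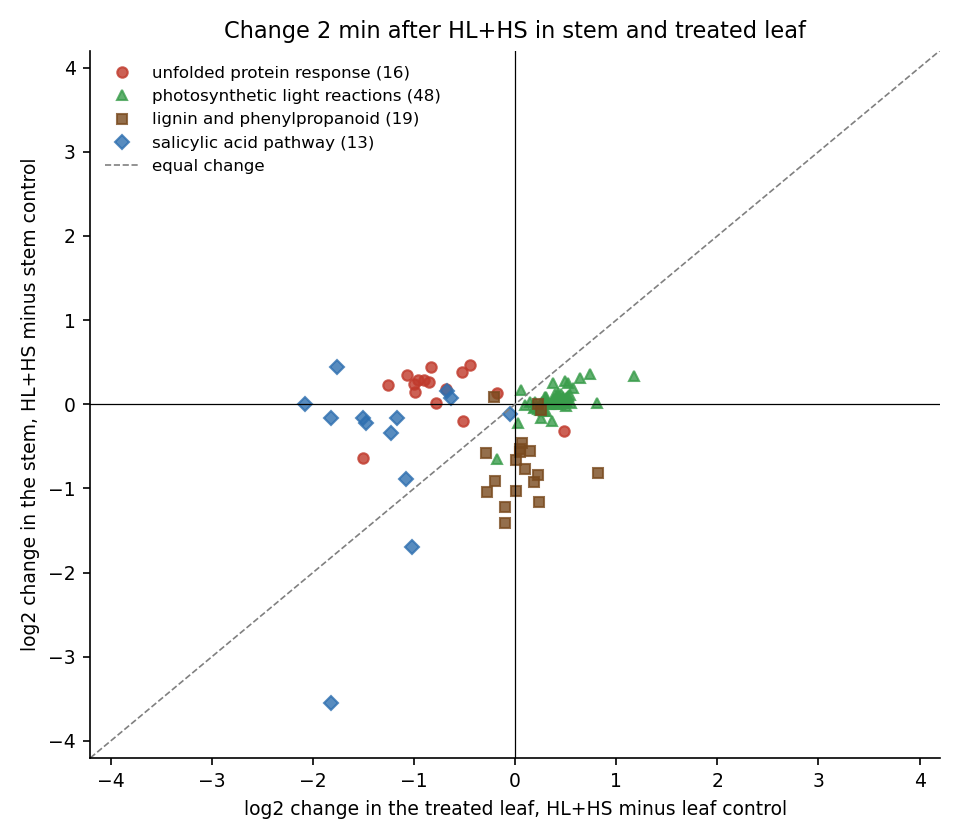
Change from control 2 min after HL+HS in stem against leaf, as log2 differences of normalized counts plus 1 from 1 fit over 60 libraries, for 16 unfolded protein response, 48 light reaction, 19 lignin and 13 salicylic acid genes, with a dashed line of equal change. Unfolded protein response genes lie on the side of a more positive change in stem, and light reaction and lignin genes on the side of a more negative one.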

How the data were processed

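RNA was extracted with a plant mini kit from stem tissue, made into TruSeq libraries and sequenced single-end, per the labels' protocols. FastQC 0.11.7, STAR 2.4.0.1, DESeq2 1.20.0 and TAIR10 are named in the submitters' processing notes, without roles. The deposited signal values are normalized counts made by the authors, reads of each gene divided by a size factor of the library. Whole reads were recovered for 100% of the values (tolerance 1e-06 reads). Differences were fitted with limma 3.58.1 in R 4.3.3 (lmFit, eBayes with trend) on log2 of normalized count plus 1, over all 27 stem libraries in 9 groups and genes with a mean of at least 10 in the 6 compared libraries, with two-sided tests and Benjamini-Hochberg adjustment at 0.05. The stem against leaf term used all 60 libraries and 18819 genes with a mean of at least 10 in its 12 libraries. Stem values in that contrast come from the same fit, and single-tissue counts of the stem from the stem fit. No test was made at 8 min.

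Library depth ran from 31725824 to 47559552 reads at 2 min and from 11071918 to 12998149 at 0 and 8 min, and counting intervals cover counting error only. Beyond counting error, the median coefficient of variation among genes of at least 500 reads was 1.80% in HL+HS stems and 1.71% in control stems. These medians cover unlike sets, 11705 genes in HL+HS stems and 5069 in the shallower control stems. Alternatives were edgeR 4.0.16 (quasi-likelihood) and DESeq2 1.42.0 on recovered reads, TMM rescaling, pseudocounts of 0.1 and 5, no filter, only the compared groups, a replicate block, thinning and leaving out each library. Same-numbered libraries did not deviate together (correlations of -0.0749 to 0.0765 over 12 pairs), so the numbers do not pair them.

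Genes were selected for naming by rule, and the text describes only some of them. The rule took the 10 largest rises and 10 largest falls with a group mean of at least 50 and groups that do not overlap. It added a list of stress markers, up to 4 members of each list and up to 3 per direct comparison and direction. It also added up to 10 that differ from all 3 other groups, and 3 per direction between tissues. Stress markers left undescribed include ELIP1, HSP101, MBF1C, APX2, STZ, TPC1 and TCH3. The members and lists were chosen with earlier results of these data known, and the lists of secondary wall regulators, xylan, nitrate and chlorophyll genes and the AC elements were added after values were seen. Further genes named as isoforms, partners or exceptions of these (such as POR C, VND7, XCP1, F8H, 4CL1, LOX2 and JAZ10) were also chosen after their values were seen. Folds from few reads were also computed with each library left out, an alternative chosen after seeing the data. Lists share some members, such as IRX12 and CESA4. Of the identifiers, 32548 matched a TAIR10.1 locus and 285 did not. Near-identical sequence means at least 95% identity over at least 50 bases (BLAST 2.17.0).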

Additional observations from a re-analysis of the deposited data

Results flagged for a closer look

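The change between HL+HS and control differed between stem and leaf for 4754 genes by the interaction test. The 3 genes named on each side were BIP2 (1.48), CNX1 (1.25) and Hsp70-2 (1.57), with a more positive change in stem, and TGG2 (-1.73), OMT1 (-1.07) and PAL1 (-1.12), with a more negative one. For Hsp70-2, a cytosolic HSP70 chaperone, the change in leaf was -1.49, while the stem groups overlapped at 709.0, 718.6 and 742.9 normalized counts in HL+HS and 733.4, 665.2 and 652.1 in control stems. OMT1, a methyltransferase of lignin synthesis, changed by -0.84 in stem and 0.23 in leaf on the log2 scale.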

How the results depend on the processing

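Against control, the count of 6677 genes lay between 5615 and 7043 under 15 alternatives, with 5615 to 6205 when a library was left out, and the difference between stem and leaf lay between 4121 and 5031. The direct comparisons depended more on the fit. Against HL, 4436 genes passed with only the compared groups in the fit, 4500 with edgeR and 3440 with DESeq2, and 1336 to 1818 without single libraries. Against HS these counts were 1865, 1842, 1311 and 438 to 520, and against HL&HS 2273, 2252, 1591 and 303 to 407. The rule of a single direction against all 3 groups gave 509, 524, 373 and 73 to 131. With the replicate block, the counts were 6648 against control, 2179 against HL, 738 against HS, 560 against HL&HS, 132 for all 3 groups and 4795 between tissues, and the block moved no count by over 1.5 times. TMM rescaling gave 3864 higher of 6808 genes against control. Of 251 genes selected for naming, not all of which are described in the text, 205 kept their call against control under every alternative. Of the rest 46 changed it and 0 reversed. Of 68 counts over lists against control, 57 stayed within 1.5 times. Without control replicate 1 the fall of BGL2 (-0.65) was no longer called, and RbcX1 lost its call against HL&HS when any 1 of 5 libraries was left out (1.10 to 1.42). The control libraries are shallower than the 2 min libraries, which limits calls of genes with few reads, and depth cannot be told apart from treatment there.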
